A study of Mus musculus with 18 samples.

Results

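Small nucleolar RNA (snoRNA) genes were examined in the RNA-seq of regulatory T cells (Tregs) with and without Chd8, which encodes a chromatin remodeler. The members were chosen by their symbol and by a measured level: symbols that start with Snord or Snora and a number, with a TPM, a read count scaled by gene length and library total, that reached 1 in 2 or more of the 4 libraries. Of 114 such symbols listed, 106 reached this level, 70 of box C/D (Snord) and 36 of box H/ACA (Snora), among 15240 genes compared and 35865 genes listed under a single name. Since the level used the same 4 libraries, levels and counts over the members are a description.

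The libraries came from 2 WT and 2 Chd8-/- mice of 5 to 7 weeks, 1 male and 1 female per genotype, with YFP+ Tregs sorted out of the CD4+ T cells of each spleen. The WT libraries are labelled CHD8flox/floxFoxp3YFP-Cre/+ and the Chd8-/- libraries CHD8Flox/FloxFoxp3YFP-Cre, and the study describes its WT mice as littermates that carry Foxp3YFP-Cre with unfloxed Chd8. The grouping of the study was used. Every library is also labelled as Poly IC injection, so the groups share that treatment. Cre and YFP are driven by the X-linked Foxp3 locus, and the sort on YFP therefore takes cells that express Cre.

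snoRNAs are short nucleolar RNAs, most of which are cut from the introns of host genes. Box C/D snoRNAs bind the methylase fibrillarin (Fbl) with Nop56, Nop58 and Snu13 and direct methylation of the ribose in ribosomal RNA. Box H/ACA snoRNAs bind the pseudouridine synthase dyskerin (Dkc1) with Nhp2, Nop10 and Gar1 and direct the conversion of uridine to pseudouridine. A few, U8 (Snord118), U22 (Snord22) and the Snord14 and Snora73 families among them, are needed for cleavage of the ribosomal RNA precursor.

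The sequences below are shown for the snoRNA inside Chd8 (Snord8), for the most abundant member of each class (Snord47 and Snora23), for 3 Snord14 copies that lie in 1 host gene and differ in their values, and for a pair from the ribosomal protein gene Rpl23a with opposite values (Snord42b and Snord4a). They are RefSeq genes in GRCm38, 5′ to 3′ on the strand of the gene. Capitals mark TGATGA, the C box, where it was found in the first part of the gene, CTGA, the D box, near the end, and for Snora23 the ACA box.
Snord8, chr14:52209786-52209884, minus strand: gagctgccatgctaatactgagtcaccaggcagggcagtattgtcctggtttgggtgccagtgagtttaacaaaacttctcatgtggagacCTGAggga
Snord47, chr1:161038092-161038156, plus strand: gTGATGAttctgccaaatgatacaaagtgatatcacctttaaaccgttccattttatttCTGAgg
Snord42b, chr11:78183059-78183113, minus strand: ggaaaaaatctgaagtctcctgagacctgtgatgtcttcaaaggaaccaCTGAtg
Snord4a, chr11:78181687-78181756, minus strand: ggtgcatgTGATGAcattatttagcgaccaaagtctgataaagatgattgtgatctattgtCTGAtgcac
Snord14c, chr9:40803583-40803669, plus strand: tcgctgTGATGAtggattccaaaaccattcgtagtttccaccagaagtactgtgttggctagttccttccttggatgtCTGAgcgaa
Snord14d, chr9:40803995-40804081, plus strand: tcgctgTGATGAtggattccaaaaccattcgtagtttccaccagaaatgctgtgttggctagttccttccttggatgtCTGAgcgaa
Snord14e, chr9:40804748-40804838, plus strand: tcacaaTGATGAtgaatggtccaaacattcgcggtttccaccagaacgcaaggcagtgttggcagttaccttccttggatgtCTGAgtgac
Snora23, chr7:110046364-110046547, plus strand: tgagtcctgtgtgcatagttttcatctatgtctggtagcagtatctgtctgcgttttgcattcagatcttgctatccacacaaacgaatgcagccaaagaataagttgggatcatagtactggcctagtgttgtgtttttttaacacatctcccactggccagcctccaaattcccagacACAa

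The box letters were searched on the strand of the gene only. CTGA starting in the last 15 bases was found in 69 of 70 box C/D members (98.6%). Among windows of the same length that ended a gene length upstream of each member, it was found in 5.71%. TGATGA before the midpoint of the gene was found in 24 of 70 (34.3%) and in 1.43% of the windows. ACA ending within 6 bases of the end was found in 34 of 36 box H/ACA members (94.4%) and in 8.33% of the windows. The box C/D members were 28 to 221 nt long (median 68) and the box H/ACA members 56 to 205 nt (median 120.5).

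Of the 106 members, 99 lay in an intron and 4 over an exon of a host gene on the same strand, and 3 (Snord118, Snord13 and Snord89) lay in no gene on that strand. The 74 host genes were protein-coding for 77 members and long noncoding RNA (lncRNA) genes for 26, and 32 members lay in genes of ribosomal proteins. Reads of unspliced host RNA, or of a host exon, cannot be told apart here from reads of the snoRNA itself. A level of a member is therefore that of all reads assigned to its gene, and the part of host RNA in it was not tested. A stretch of 25 bases was shared with another annotated snoRNA gene by 31 members, 11 of box C/D and 20 of box H/ACA, so their reads could have been split among copies. A gene lay on the other strand of 7 members, among them Snord8 and Snord47, and reads of both strands cannot be told apart where the counting did not use the strand, which is not stated.

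Because the genes are short, few reads stand behind each value. A common step of TPM times exon length showed that 1 read was worth 1.482 and 1.895 TPM in Chd8-/- 1 and 2, and 2.05 and 1.933 TPM in WT 1 and 2, for a gene of 100 nt. All snoRNA values above 0 were whole numbers of reads within 0.0647 of a read. The members held 5692 and 3350 reads in Chd8-/- 1 and 2, and 3720 and 4145 in WT 1 and 2, of 13550000, 9510000, 9600000 and 10670000 reads on genes. The median member had 79.5 reads over the 4 libraries in box C/D and 121.5 in box H/ACA, and 8 members had under 10. A count of 0 allows up to 3 reads (counting error only).

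The targeted gene, Chd8, was at 24.7 and 27.6 TPM in the WT and at 14.9 and 11.4 TPM in the Chd8-/- libraries. The Treg transcription factor Foxp3 was at 202.8 to 232.1 TPM in all libraries. Chd8-/- 2 stood apart in the markers of other cells. Its 4 hemoglobin genes summed to 1938.1 TPM, against 0.5 in Chd8-/- 1, where Hbb-bs, Hbb-bt and Hba-a2 were at 0, and 369.5 and 329.8 in the WT. Its 4 myeloid markers summed to 1387.7 TPM, with Lyz2 at 1360.3 TPM, against 20.4 to 93.2 in the others. Its B cell markers summed to 136.3 TPM against 27.2 to 43.4, and its CD8 and NK cell markers to 37.5 against 11.3 to 40.0. The part of these cells in the snoRNA values was not tested, and the main counts and medians are also given without Chd8-/- 2. In bulk RNA, fewer cells of a type and less RNA per cell cannot be told apart.

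In TPM, which divides by gene length, snoRNA genes were above the median gene compared, and a few held much of their total. The median member was at 41.4 and 40.2 TPM in the WT and at 52.0 and 23.6 TPM in the Chd8-/- libraries, where the median of all genes compared was 13.4, 14.2, 12.9 and 11.3 TPM. The median of the 542 other genes with exons under 200 nt was 19.4 and 21.2 TPM in the WT and 17.0 and 13.7 TPM in the Chd8-/- libraries. Most of these are probably microRNA precursors, since 512 genes with Mir symbols were among all genes compared. Here and below they are thus not a general standard for short genes. The members together held 0.799% and 0.897% of all TPM in WT 1 and 2, and 0.937% and 0.684% in Chd8-/- 1 and 2. Of the reads on genes they held 0.0387% and 0.0388% in the WT, and 0.042% and 0.0352% in the Chd8-/- libraries. Box C/D members summed to 5360.8 and 6485.2 TPM in the WT and to 6741.0 and 4657.2 TPM in the Chd8-/- libraries. Box H/ACA members summed to 2628.2 and 2481.6 TPM in the WT and to 2630.8 and 2178.7 TPM in the Chd8-/- libraries. In both classes Chd8-/- 2 was the lowest library and Chd8-/- 1 the highest, so the genotypes enclosed one another. The 10 most abundant box C/D members held 45.4% to 51.5% of their class in each library, and the 10 most abundant of box H/ACA 61.6% to 74.1%.

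**Figure D1:**
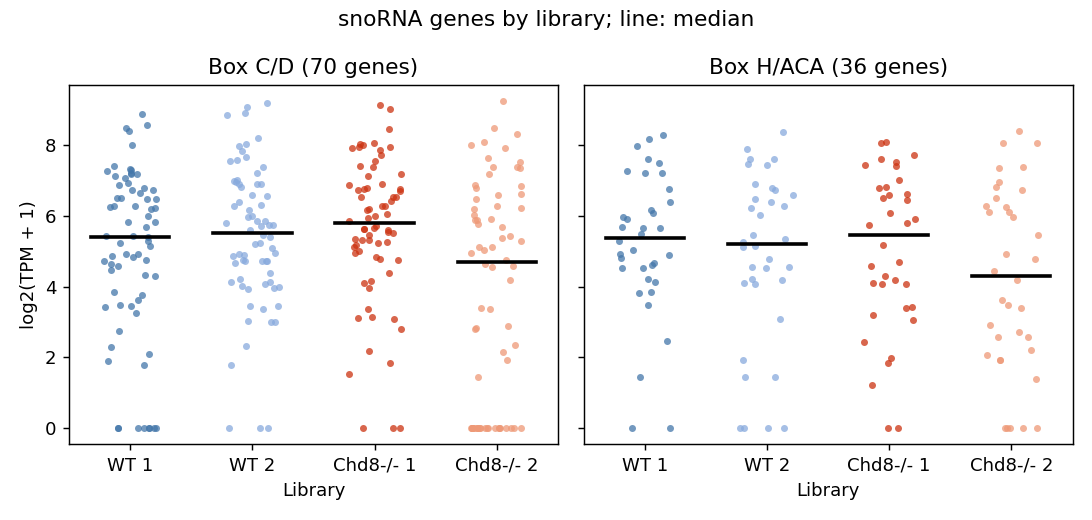
Level of each snoRNA gene, as log2(TPM + 1), in the 4 libraries, with box C/D genes (70) on the left and box H/ACA genes (36) on the right. Each point is a gene and the line is the median. Genes at 0 form the row at the bottom, which holds 22 box C/D genes in Chd8-/- 2 and 3 to 8 in the other libraries.

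Among box C/D members, Snord47 and Snord2 had the highest mean levels. Snord47, from an intron of the lncRNA gene Gas5, was at 359.5 and 464.0 TPM in the WT and at 515.4 and 603.6 TPM in the Chd8-/- libraries, higher in both. Snord2, from the translation initiation gene Eif4a2, was at 470.2 and 588.5 TPM in the WT and at 562.4 and 315.0 TPM in the Chd8-/- libraries, which overlap. Snord104 was at 379.1 and 476.7 TPM in the WT and lower, at 349.3 and 257.0 TPM, in the Chd8-/- libraries. These 3 differed by log2 fold changes of 0.45 (SE 0.21), -0.32 (SE 0.34) and -0.50 (SE 0.24).

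Several others of the 10 most abundant had overlapping groups, and their replicates could be far apart. Snord72, in the ribosomal protein gene Rpl37, was at 338.2 and 228.8 TPM against 261.9 and 199.0 TPM. Snord100, in Rps12, was at 153.7 and 250.2 TPM against 255.1 and 242.5 TPM. For Snord100, WT 1 was the low library and the other 3 were close together. Snord53, in Wdr43, a gene of early ribosome assembly, was at 138.7 and 295.7 TPM against 231.1 and 161.7 TPM. Snord14e, in the heat shock cognate gene Hspa8, was at 256.8 and 123.2 TPM against 263.9 and 58.3 TPM. Snord96a, in the ribosome scaffold gene Rack1, was at 77.2 and 118.0 TPM in the WT and higher, at 246.4 and 164.9 TPM, in the Chd8-/- libraries. Snord99, in the lncRNA gene Snhg12, was at 168.4 and 258.9 TPM in the WT, at 169.4 TPM in Chd8-/- 1 and at 0 in Chd8-/- 2, with a log2 fold change of -4.01 (SE 2.53) that was -0.30 without Chd8-/- 2.

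Among box H/ACA members, Snora23, in the importin gene Ipo7, led with 250.6 and 333.1 TPM in the WT and 270.7 and 166.9 TPM in the Chd8-/- libraries, which overlap. Snora33, in Rps12 like Snord100, was at 193.3 and 237.5 TPM in the WT and higher, at 266.8 and 265.3 TPM, in the Chd8-/- libraries. Snora65, in Rpl12, was at 147.7 and 175.3 TPM against 182.2 and 268.2 TPM, also higher in both. The log2 fold changes of the latter 2 were 0.31 (SE 0.18) and 0.46 (SE 0.26), with WT and Chd8-/- values that nearly touch. Snora31 (Tpt1) was at 287.3 and 193.3 TPM against 211.8 and 76.2 TPM. Snora81, in Eif4a2 like Snord2, was at 308.7 and 172.1 TPM against 194.3 and 42.8 TPM. For both, Chd8-/- 1 lay within the WT range and Chd8-/- 2 below it. Snora30 (Srcap) was at 178.2 and 119.3 TPM against 170.4 and 111.6 TPM, so the replicates differed more than the genotypes. Snora73b, a U17 snoRNA from Snhg3, was at 152.0 and 105.6 TPM against 96.9 and 160.9 TPM. Snora7a (Rpl32) was at 66.7 and 34.5 TPM in the WT and at 23.0 TPM in Chd8-/- 1, but at 337.9 TPM in Chd8-/- 2, 230 reads against 20 to 42 elsewhere. Snora3 (Rpl27a), at 107.6 and 82.2 against 111.2 and 123.2 TPM, did not overlap.

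For many members the replicates of a genotype differed by more than counting error. The exact Poisson intervals of the 2 Chd8-/- libraries, on the TPM scale, did not touch for 54 of 106 members, and those of the 2 WT libraries for 35. Between genotypes they did not touch for 37 and 28 members in Chd8-/- 1 against WT 1 and WT 2, and for 51 and 56 members in Chd8-/- 2. In the same order these are 50.9%, 33.0%, 34.9%, 26.4%, 48.1% and 52.8% of the members. Over 14386 genes with a known length, most of them deeper in reads, the shares ran from 45.7% (the WT replicates) to 67.6%, and over 542 other genes with exons under 200 nt from 24.4% (also the WT replicates) to 34.7%. The Chd8-/- replicates differed by a median of 1.55 on the log2 scale, without regard to sign, and the WT replicates by 1.00. The median was 0.88 and 1.00 between Chd8-/- 1 and the WT libraries, so that this library was as far from each WT library as they were from each other, or closer. It was 1.45 and 1.80 between Chd8-/- 2 and the WT libraries. Over all 15240 genes the median replicate difference was smaller, 0.52 in Chd8-/- and 0.32 in WT. Over the other genes under 200 nt it was 1.44 and 1.22, close to the values of the snoRNA genes.

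Against this spread, the genotypes were compared as log2(TPM + 1). Toward Chd8-/-, 15 members (14.2%) reached a log2 fold change of 1, as did 5.12% of all genes compared. Toward WT, 34 members (32.1%) reached -1, as did 11.6% of all genes. Of the other genes with exons under 200 nt, 17.7% lay past 1 and 29.5% past -1. By class, 12 box C/D members were higher and 25 lower by this measure, and 3 box H/ACA members were higher and 9 lower. The median log2 fold change was -0.41 in box C/D and -0.40 in box H/ACA, against -0.15 over all genes.

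The excess of lower members was lost without Chd8-/- 2. Without that library 18 box C/D members were higher and 9 lower, 6 box H/ACA members were higher and 6 lower, and the medians turned to 0.19 and 0.18, above 0. Without Chd8-/- 1 the medians were -0.70 and -0.39. Against the mean of the WT libraries, the median over the 106 members was 0.19 for Chd8-/- 1 and -0.79 for Chd8-/- 2, where it was -0.04 and -0.25 over all genes. By this measure Chd8-/- 1 was past 1 for 25 of the 106 members and past -1 for 15. The same counts were 989 and 1446 of all 15240 genes, and 134 and 135 of the 542 other genes with exons under 200 nt. Chd8-/- 2 was past 1 for 15 of the 106 members and past -1 for 50. In that library the counts were 1370 and 3107 of all genes, and 126 and 216 of the other genes under 200 nt, so more were lower there too.

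With limma (two-sided, Benjamini-Hochberg adjustment over all 15240 genes), 0 members and 0 of all genes (0.0%) had an adjusted p under 0.05. The smallest adjusted p of a member was 0.403. Without adjustment, 18 members (17.0%) had a p under 0.05, where 10.2% of all genes did, and 21.8% of the other genes under 200 nt. With 2 libraries a genotype, the smallest p that exact permutation allows is 0.333.

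**Figure D2:**
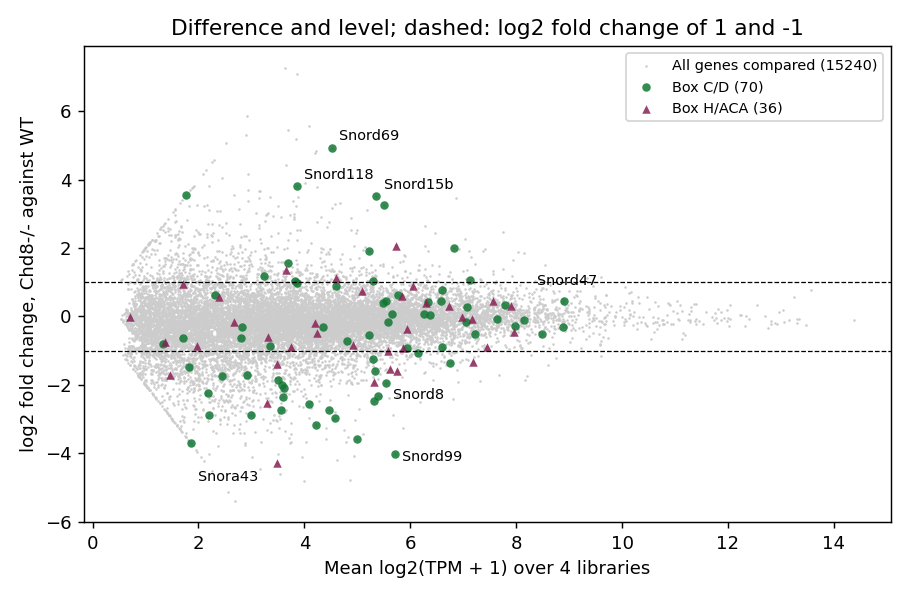
Log2 fold change of Chd8-/- against WT, on the log2(TPM + 1) scale, against the mean level over the 4 libraries. Grey points are all 15240 genes compared, green circles box C/D genes and purple triangles box H/ACA genes, and dashed lines mark 1 and -1. The snoRNA genes spread from -4.28 to 4.93, and those with the highest levels, such as Snord47, lie near 0.

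Values of the 2 genotypes did not overlap for 36 members (34.0%), where 42.6% of all genes did not overlap. Of these, 17 were higher and 19 lower in Chd8-/- Tregs. Without Chd8-/- 2, the single value of Chd8-/- 1 lay above both WT values for 34 members and below both for 24 (54.7% in all), where 71.2% of all genes lay outside.

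**Figure D3:**
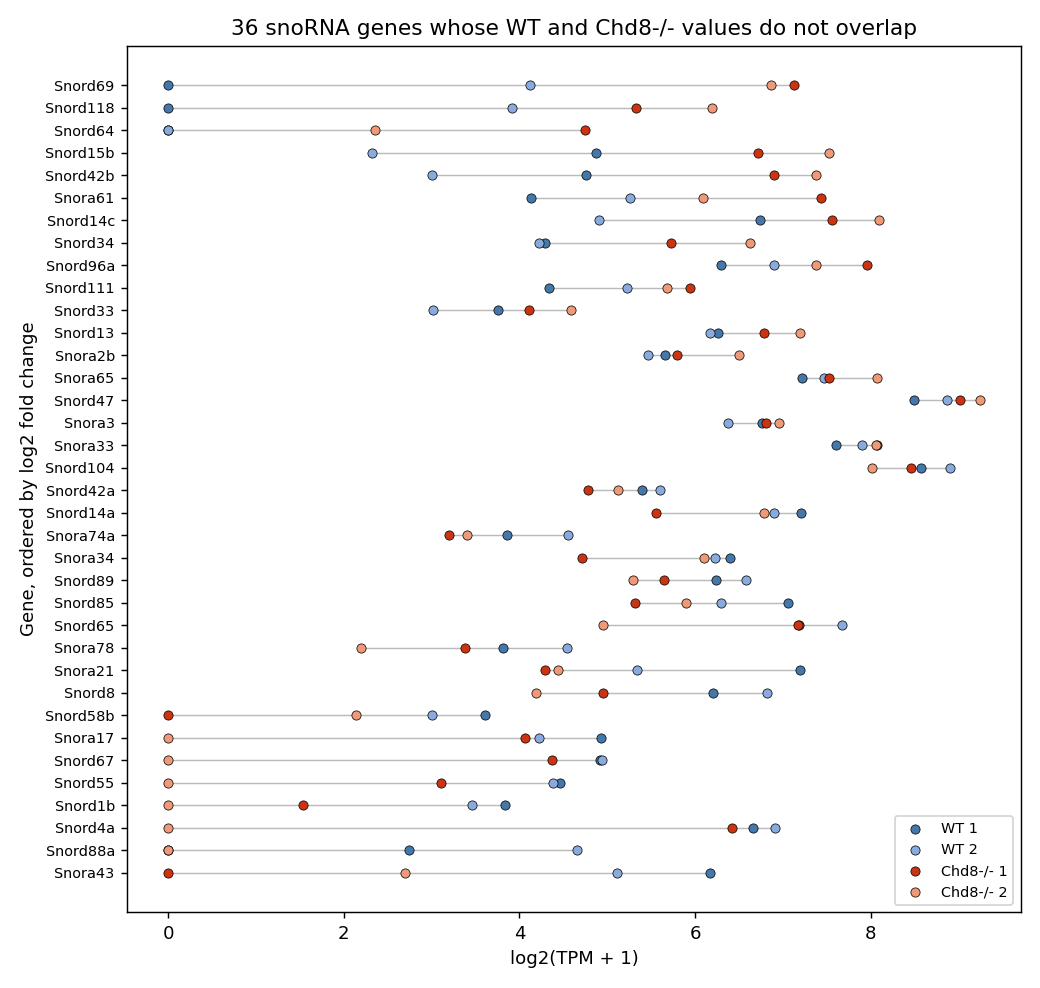
Values of the 36 snoRNA genes whose genotypes did not overlap, as log2(TPM + 1), ordered by log2 fold change. Blue points are the WT and red points the Chd8-/- libraries. Snord69, at the top, was at 138.2 and 115.6 TPM in Chd8-/- Tregs, and Snora43, at the bottom, at 0 and 5.5 TPM.

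Among the lower members was Snord8, which lies in an intron of Chd8 itself. Snord8 was at 72.5 and 111.3 TPM in the WT (35 and 57 reads) and at 29.9 and 17.2 TPM in the Chd8-/- libraries (20 and 9 reads). The log2 fold change was -1.94 (SE 0.39) and stayed between -2.32 and -1.56 when any 1 library was left out. Chd8 differed by -0.95, so both the host and its snoRNA were lower in each Chd8-/- library than in each WT library. Snord8 shares 25 bases with another annotated snoRNA gene (Gm23734) and has a lncRNA gene (Gm26590) on its other strand.

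Of the 8 lower box C/D members with the largest differences without overlap, Snord8 was 1. Snord88a was at 5.7 and 24.2 TPM in the WT and at 0 in both Chd8-/- libraries (2, 9, 0 and 0 reads), and so reached the level for members through the WT alone, where it is higher. Snord4a, in Rpl23a, was at 99.6 and 118.8 TPM in the WT, at 84.7 TPM in Chd8-/- 1 and at 0 in Chd8-/- 2. In reads these are 34, 43, 40 and 0, so that Chd8-/- 1 was near the WT level and the log2 fold change without Chd8-/- 2 was -0.36, against -3.57 with it. Snord67 (Ckap5) was at 29.3 and 29.6 against 19.7 and 0 TPM. Snord1b (Snhg16) was at 13.3 and 10.0 against 1.9 and 0 TPM, and Snord58b (Rpl17) at 11.2 and 7.0 against 0 and 3.4 TPM, each with 5 reads at most. Snord65, in the lncRNA gene 2410006H16Rik, was at 143.8 and 203.5 against 143.0 and 29.9 TPM, with the first Chd8-/- value just below the WT.

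Of the lower box H/ACA members, Snora43 and Snora17 come from the lncRNA gene Snhg7. Snora43 was at 70.8 and 33.4 TPM in the WT (48 and 24 reads) and at 0 and 5.5 TPM in the Chd8-/- libraries (0 and 4 reads), a log2 fold change of -4.28 (SE 1.03). Snora17 was at 29.5 and 17.6 against 15.7 and 0 TPM. Snhg7 was also lower, at 61.6 and 49.5 against 29.8 and 22.2 TPM, so this host and both its members were lower in each Chd8-/- library. Snora21, in Rpl23, was at 145.7 and 39.3 TPM in the WT and at 18.5 and 20.7 TPM in the Chd8-/- libraries, which lie close together. Snora78 (Snhg9) was at 13.1 and 22.2 against 9.4 and 3.6 TPM, Snora34 (Kansl2) at 83.4 and 73.7 against 25.1 and 67.5 TPM, and Snora74a (Snhg4) at 13.5 and 22.5 against 8.2 and 9.6 TPM.

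The higher box C/D members named next were chosen for genotypes without overlap, so by that choice none could be at 0 in a Chd8-/- library. Snord69, in Gnl3, the gene of the nucleolar protein nucleostemin, was at 0 and 16.4 TPM in the WT (0 and 5 reads) and at 138.2 and 115.6 TPM in the Chd8-/- libraries (55 and 36 reads), a log2 fold change of 4.93 (SE 1.42). Snord118, or U8, which has no host gene, was at 0 and 14.1 TPM against 39.0 and 71.9 TPM (0, 10, 36 and 52 reads). Both were undetected in WT 1. Snord15b, in Rps3, was at 28.3 and 4.0 TPM against 104.3 and 183.0 TPM, a log2 fold change of 3.52 (SE 0.93). Snord42b, in Rpl23a, was at 26.1 and 7.0 TPM against 118.6 and 165.4 TPM, a log2 fold change of 3.26 (SE 0.65). Left out in turn, single libraries moved these 4 between 1.84 and 6.99 and turned none below 0.

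Snord64, in Snhg14, had 0 reads in WT 1 and WT 2 and 8 reads and 1 read (25.8 and 4.1 TPM) in the Chd8-/- libraries, and so reached the level for members through Chd8-/- alone. Snord34, in Rpl13a, was at 18.6 and 17.6 TPM in the WT and at 51.7 and 97.6 TPM in the Chd8-/- libraries, a log2 fold change of 1.92 (SE 0.38). Its WT values were nearly equal. Snord14c (2.00, SE 0.67) and Snord96a (1.07, SE 0.33) complete the 8. Of box H/ACA, 5 members were higher without overlap. Snora61, in Snhg12, was at 16.5 and 37.4 TPM against 172.2 and 67.3 TPM, a log2 fold change of 2.07 (SE 0.63). Snora2b (Kansl2) was at 49.4 and 43.2 against 54.3 and 89.7 TPM, and Snora65, Snora33 and Snora3 are given above, all under a log2 fold change of 1.

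Of the members, 27 were at 0 in Chd8-/- 2, against 5 in Chd8-/- 1, 10 in WT 1 and 7 in WT 2. Of 38 members with at least 20 reads in each of the other libraries, 5 had at most 2 reads in Chd8-/- 2: Snord17, Snord99, Snord95, Snord4a and Snord7. Snord17, in Snx5, had 118 and 89 reads in the WT, 154 in Chd8-/- 1 and 2 in Chd8-/- 2. The same count was 0 of 28 in Chd8-/- 1, 0 of 29 in WT 1 and 0 of 30 in WT 2. It is not given for other genes, so whether it is particular to snoRNA genes was not tested. In Chd8-/- 2, 25.5% of the members were at 0, beside 28.6% of the other genes under 200 nt and 3.70% of genes of 200 nt or more.

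The shortfall in Chd8-/- 2 was not equal over host genes. Members in ribosomal protein genes (32) had a median of 0.20 in Chd8-/- 2 against the WT mean and 0.21 in Chd8-/- 1. Members in other protein-coding genes (45) had a median of -1.74 in Chd8-/- 2 and 0.19 in Chd8-/- 1, and members in lncRNA genes (26) -1.15 and 0.22. In summed level, the members in other protein-coding genes were at 2143.6 TPM in Chd8-/- 2 and at 3517.0 to 4114.1 TPM in the other libraries, while those in ribosomal protein genes were at 3012.6 TPM and at 2322.9 to 2535.4 TPM. The 18 listed lncRNA host RNAs (Gas5 and the Snhg genes) were themselves lowest in Chd8-/- 2, summing to 1555.1 TPM against 1942.4 to 2610.8 TPM in the other libraries. Single host RNAs could go the other way, such as Snhg9, at 42.5 TPM in Chd8-/- 2 against 17.0 to 19.0 TPM. These differences between host types were not tested.

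**Figure D4:**
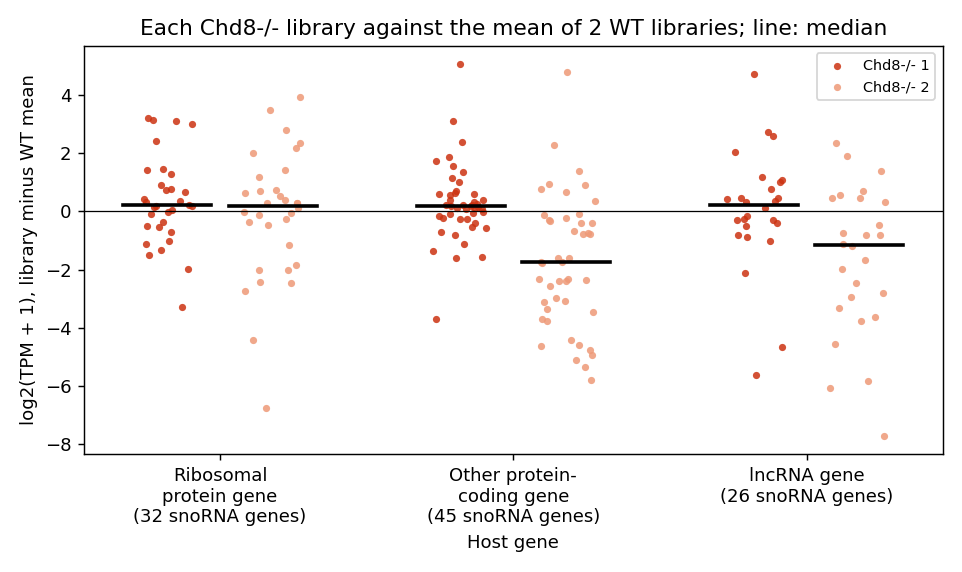
Level of each snoRNA gene in Chd8-/- 1 (dark) and Chd8-/- 2 (light) minus the mean of the 2 WT libraries, as log2(TPM + 1), by the type of host gene. Points are genes and lines are medians. In Chd8-/- 2 the medians are 0.20, -1.74 and -1.15 from left to right, and in Chd8-/- 1 they are 0.21, 0.19 and 0.22.

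The 73 host genes compared had log2 fold changes from -1.07 to 0.68, with a median size of 0.18, where the median size over the members was 0.91 and over the other genes under 200 nt 0.90. Without Chd8-/- 2 these were 0.24, 0.60 and 0.93. None of the hosts was past 1 and 2 were past -1, Snhg7 and Rbmx. Over the 102 members with such a host, the correlation with the host was r = 0.247, across genes of the same libraries that partly share hosts. Of them 64 had the sign of their host, or 68 of 101 without Chd8-/- 2. With all libraries, 67 of the 106 members and 44 of the 73 hosts were below 0, so many signs would match without any relation. The mean level of 80 of the members was below that of the host, and of 23 above it.

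**Figure D5:**
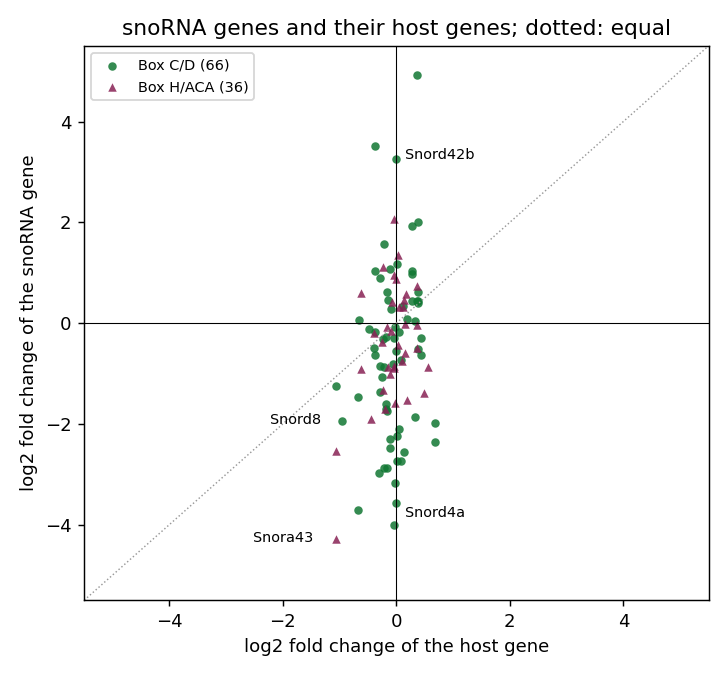
Log2 fold change of each snoRNA gene against that of its host gene, both for Chd8-/- against WT on the log2(TPM + 1) scale, for 66 box C/D and 36 box H/ACA genes. The points form a narrow vertical band, since hosts lie between -1.07 and 0.68 and snoRNA genes between -4.28 and 4.93.

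Members of the same host could lie far apart. Of 22 hosts with 2 or more members, 10 had members on both sides of 0, 4 had all members above and 8 all below, and the median range within a host was 1.83. Without Chd8-/- 2, 10 had members on both sides, 9 all above and 3 all below. Rpl23a, at 3061.7 to 3547.7 TPM in all libraries, holds Snord42b (3.26), Snord42a (-0.55) and Snord4a (-3.57). Snord42a was at 41.0 and 47.3 against 26.4 and 33.7 TPM, with 8 to 11 reads in each library. Snhg12 holds Snora61 (2.07), Snora16a (0.95), Snora44 (-0.85) and Snord99 (-4.01), and was itself at 83.5 and 90.9 against 124.0 and 57.2 TPM. Snora44 was at 24.5 and 64.4 against 86.2 and 4.9 TPM. Single libraries set this order: without Chd8-/- 2 Snora44 was at 1.09 and Snord99 at -0.30, and without WT 2 Snora16a was at -0.28.

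In Rpl13a all 4 members, Snord34, Snord32a, Snord33 and Snord35a, had log2 fold changes above 0, from 0.43 to 1.92, with Rpl13a at 0.27. Snord33 was at 12.5 and 7.1 against 16.3 and 23.1 TPM without overlap. Snord35a was at 87.5 and 54.3 against 76.6 and 112.9 TPM. Snord32a, at 27.8 and 2.4 against 14.6 and 25.7 TPM, lay on either side of its Chd8-/- values in the WT, and without WT 2 its log2 fold change turned from 1.04 to -0.50. The lncRNA gene 2410006H16Rik was at 343.7 and 378.3 against 482.0 and 179.7 TPM, with Chd8-/- 2 the lowest, as for its members. Snord49a was at 9.9 and 28.1 against 107.6 and 9.2 TPM, and Snord49b at 3.3 and 43.0 against 56.5 and 0 TPM.

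The 3 Snord14 copies of Hspa8 show how libraries differed for near-identical genes. Snord14c and Snord14d are 97.7% identical, and Snord14e is 78.7% identical to each. Snord14c was at 106.0 and 28.9 TPM in the WT and at 187.4 and 272.3 TPM in the Chd8-/- libraries. Snord14d was at 42.4 and 35.6 against 115.9 and 24.0 TPM. Chd8-/- 2 was thus the highest library for Snord14c and the lowest for Snord14d and Snord14e. Assignment of reads between the first 2 is uncertain.

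Nop56 and Nop58, core proteins of box C/D particles, are also hosts of members. Nop56 was at 33.8 and 33.9 TPM in the WT and at 52.6 and 56.8 TPM in the Chd8-/- libraries (0.68), whereas its members Snord57 and Snord110 were at -1.99 (SE 1.95) and -2.35 (SE 1.73). Both were at 0 in Chd8-/- 2, with 15 and 11 reads in Chd8-/- 1, against 3 and 17 reads of Snord57 and 12 and 5 reads of Snord110 in the WT, and without that library their log2 fold changes were 0.60 and 0.07. Nop58 was at 113.8 and 118.9 against 154.2 and 162.3 TPM (0.44), and its members Snord11 and Snord70 were at -0.30 (SE 2.74) and -0.63 (SE 1.82), and at 2.38 and 1.86 without Chd8-/- 2.

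The genes of snoRNA proteins were described by lists. With limma, 0 genes of these lists had an adjusted p under 0.05, and without adjustment 2 of the box C/D core, 0 of the box H/ACA core, 1 of the assembly factors, 0 of the processing genes, 0 of the ribosomal RNA genes, 1 of the host RNAs and 3 of the other small RNAs had a p under 0.05, where 10.2% of all genes did. Shares of all genes past 1, past -1 and without overlap are 5.12%, 11.6% and 42.6%. Of the box C/D core genes, Fbl was at 198.1 and 196.8 TPM in the WT and at 278.9 and 283.2 TPM in the Chd8-/- libraries, and with Nop56 and Nop58 it did not overlap between genotypes. Snu13, listed under Nhp2l1, was at 218.9 and 182.2 against 228.0 and 174.6 TPM. The 4 log2 fold changes had a median of 0.47, and 0 of 4 were past 1. Of the box H/ACA core genes, Dkc1 (0.20), Nhp2 (0.53), Nop10 (0.36) and Gar1 (0.58) were all above 0, with 2 of 4 without overlap. Without Chd8-/- 2, 0 genes of the core, assembly, processing and ribosomal RNA lists were past 1 or -1. For these 2 lists the summed TPM was higher in both Chd8-/- libraries, at 713.7 and 676.9 against 564.6 and 531.8 for box C/D and at 488.4 and 487.3 against 376.7 and 366.4 for box H/ACA, also in Chd8-/- 2, where many members were at 0.

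Of 9 assembly factors listed, 1 was past 1 and none past -1. The former was Znhit3, at 8.2 and 14.0 against 21.3 and 75.4 TPM. Ruvbl1, a helicase of the assembly complex, was at 83.8 and 97.0 against 169.5 and 135.0 TPM (0.74, SE 0.22). Of 11 genes of snoRNA processing and decay, 1 was past -1, Toe1, which trims the ends of small RNAs, at 10.7 and 9.7 against 5.9 and 1.6 TPM. The others, among them the exosome nuclease Exosc10 (0.17), Parn (0.21) and the debranching enzyme Dbr1 (0.35), lay between -0.41 and 0.35. Of 19 genes of rDNA transcription and ribosomal RNA processing, 0 were past 1 or -1, and Ncl (0.18) and Npm1 (0.19), abundant nucleolar proteins, were near 0. Of 15 snoRNA host RNAs compared, Snhg7 (-1.07) was past -1 and none was past 1, and without Chd8-/- 2 none was past -1 and 2 were past 1.

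Other small noncoding RNAs were compared for their class. Of 26 Scarna, Rnu, Terc, Rmrp, Rpph1 and Rn7sk genes compared, 2 were past 1 and 8 past -1, with a median of -0.42, and without Chd8-/- 2, 0 and 6 of 24. Of the other genes under 200 nt, 17.7% were past 1 and 29.5% past -1. Rpph1, the RNA of RNase P, was at 425.7 and 322.4 TPM in the WT and at 64.3 and 194.8 TPM in the Chd8-/- libraries. Rmrp, the RNA of RNase MRP, was at 858.7 and 797.2 against 351.5 and 540.3 TPM. Both were lower in each Chd8-/- library, with log2 fold changes of -1.72 (SE 0.58) and -0.92 (SE 0.26). Scarna3a was higher in each, at 40.0 and 34.4 against 65.3 and 134.9 TPM (1.32, SE 0.41). Rn7sk, at 4894.1 and 4684.3 against 4428.0 and 5397.1 TPM, did not differ beyond its spread. The U3 RNA Rnu3a, a box C/D RNA outside the Snord names, was at 201.0 and 161.7 against 145.4 and 158.6 TPM.

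The members without a host gene were U8 (Snord118), Snord13 and Snord89. Snord13, which guides acetylation of ribosomal RNA, was at 75.3 and 71.0 TPM in the WT and at 108.9 and 145.1 TPM in the Chd8-/- libraries, a log2 fold change of 0.77 (SE 0.23). Snord89 was at 74.1 and 94.6 against 48.9 and 38.3 TPM, a log2 fold change of -0.94 (SE 0.26). All 3 had values above 0 in Chd8-/- 2. Their genotypes did not overlap, which also held for 42.6% of all genes. The directions differed, with U8 and Snord13 above the WT values and Snord89 below them. Snord13 and Snord89 were named after their values were seen.

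At the edge of the level that chose the members, Snora15 was at 0 and 1.7 TPM in the WT and at 0 and 1.6 TPM in the Chd8-/- libraries, where the latter of each pair is 1 read. Snora16a was at 4.5 and 0 against 4.4 and 2.8 TPM, and Snord66 at 0 and 10.0 against 2.6 and 0 TPM. Just below it were Snord23 and Snora47, with 2 reads each in WT 2 only, and Snord123, at 0 in all libraries. The 6 genes at 0 in all 4 libraries were Snord123, Snord1c, Snora35 and the imprinted brain snoRNAs Snord116, Snord116l1 and Snord116l2.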

How the data were processed

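RNA-seq of 2 WT and 2 Chd8-/- libraries was used. Per the labels and the study's methods, the authors trimmed reads with Trim Galore 0.4.2 and cutadapt 1.9.1, aligned them to mm10 with STAR 2.6.1e, dropped duplicate reads (sambamba), counted the rest per RefSeq gene (featureCounts 1.6.2) and deposited TPM values rounded to 0.1. Strand use and the handling of reads that map to several genes are not given in the sources used here. On genes of snoRNA length, removal of duplicates limits the reads that can be kept, and its effect was not tested.

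Of 35869 listed entries, 4 under repeated names were left out. The 15240 genes that reached 1 TPM in at least 2 libraries were put on the log2(TPM + 1) scale. The genotypes were compared in R 4.3.3 by the two-sided moderated test of limma 3.58.1, with a mean-variance trend and Benjamini-Hochberg adjusted p-values. Fold changes are on this scale, which draws differences of low genes toward 0. It can also overstate a difference from a value of 0, since 0 allows up to 3 reads. With each 0 set to 3 reads, the ratio of mean TPM between genotypes was 2.12 for Snord88a and 1.15 for Snord64. Their log2 fold changes were -3.70 and 3.55. Calls for counts were made at a log2 fold change of 1. The script was tested on simulated data. Reads were derived from the common step of TPM times RefSeq exon length in each library, found on genes under 200 nt other than snoRNA genes, where 98.6% to 99.4% of values came out whole within 0.15 reads. No count test was run on them. Depth was 13550000 and 9510000 reads on genes in the Chd8-/- and 9600000 and 10670000 in the WT libraries. Positions, hosts and sequences are from RefSeq in GRCm38, and 31 members share 25 bases with another snoRNA gene. Summaries used pandas 2.3.3, numpy 2.4.6 and scipy 1.17.1 in Python 3.11.15, and plots matplotlib 3.10.9.

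Named genes are Snord8 with Chd8, the 10 members of highest mean TPM per class, the 8 per class and direction with the largest log2 fold change without overlap, 3 on each side of the TPM threshold, Snord116, members of hosts with 3 or more of them, and the protein lists. Other genes named (Snord7, Snord17, Snord95, Snord11, Snord57, Snord70, Snord110, Snord13 and Snord89) were chosen after their values were seen. The members and lists were chosen with earlier results of these data known. The labels do not say whether replicate numbers pair the mice, and the deviations of same-numbered libraries had a correlation of -0.0117 over genes. That value cannot decide on a pairing by sex or litter, which was not tested. Alternatives were a replicate block, eBayes without its trend, quantile normalization, pseudocounts of 0.1 and 5 TPM, a filter at a mean of 5 TPM or none, and each library left out, and, added after seeing the data, members with at least 10 reads, members without shared stretches, and further counts without Chd8-/- 2. ATAC and ChIP peaks, which are in mm39, were planned for use and not analysed here, since the annotation used is in GRCm38. Snord9 is not analysed here either. MicroRNA precursors are not described as a class, though they probably make up most of the other genes with exons under 200 nt. A few named members are not reported here.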

Additional observations from a re-analysis of the deposited data

How the results depend on the processing

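Of 83 pairs of a class result and an alternative, 71 stayed within 1.5 times the reported count or within the spread between replicates of the reported median. That spread is wide, and the 71 include the box C/D median without Chd8-/- 2, which turned from -0.41 to 0.19. Left out in turn, single libraries moved the box C/D counts to 9 to 18 higher and 9 to 31 lower, and the box H/ACA counts to 3 to 6 higher and 6 to 14 lower. The medians ranged from -0.78 to 0.19 in box C/D and from -0.65 to 0.18 in box H/ACA, and were above 0 only without Chd8-/- 2, among the libraries left out. The number of members with an unadjusted limma p under 0.05 ranged from 10 to 39, and was 39 without Chd8-/- 1 and 10 without WT 1. With 1 library left in a genotype, that library is assumed to vary like the other genotype. With a pseudocount of 0.1 TPM, 5 box H/ACA members were past 1. Without members that share 25 bases, added after the data were seen, 1 box H/ACA member was past 1 and 4 past -1. eBayes without trend gave 11 members with an unadjusted p under 0.05, against 18. The replicate block gave 21 such members and changed no count past 1 or -1. Whether the numbers pair the mice is not known. Quantile normalization moved the median of all genes from -0.15 to 0.0 and the box C/D counts to 14 higher and 25 lower. Under all of these alternatives 0 members had an adjusted limma p under 0.05, and the smallest ranged from 0.168 to 1.0. Of 24 named members past 1 or -1, Snord32a alone turned its sign, with values from -0.50 without WT 2 to 2.59 without WT 1. Snord64 was not compared without Chd8-/- 1 or 2, and Snord88a not without WT 1 or 2, since they then missed the filter.

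Depth limits these genes: 1 read is worth 1.482 to 2.05 TPM at 100 nt, and 8 members rest on under 10 reads. The peaks at snoRNA genes were not run. With 2 libraries per genotype the p-values measure the spread between these mice only.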
